A study of Homo sapiens with 6 samples.

Results

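Cholesterol and fatty acids are built from the same cytosolic acetyl-CoA by enzymes whose genes are largely controlled by the sterol regulatory element-binding proteins (SREBPs). The escort protein SCAP carries SREBPs from the endoplasmic reticulum to the Golgi for activation, and the INSIG proteins hold SCAP back when sterols are plentiful. The genes described here are 35 listed members of that system, named for their roles in it by a list drawn up with earlier results of these arrays known: 8 early sterol enzymes, 10 late sterol enzymes, 6 regulators, 3 sterol transport proteins and 8 fatty acid enzymes. Of the 35, 31 were measured among 17687 genes, each by 1 probe set. FDFT1, MYLIP, NPC2 and FADS1 have no probe set named for them alone in the annotation used and were not analysed here.

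RNA came from A375, an established human melanoma cell line grown with fetal bovine serum, 3 days after transfection. The siERK3 group (3 arrays) received a predesigned siRNA against ERK3, the atypical MAP kinase encoded by MAPK6. The siCon group (3 arrays) received a negative control siRNA with the same transfection reagent. An siRNA lowers a transcript transiently and in part, and its sequence is not stated in the labels.

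Each array gave a log2 signal per probe set, and array medians lay between 7.06 and 7.10. A gene is called above background on an array where its signal exceeds the 95th percentile of 612 negative control probe sets, which lay between 7.32 and 7.56. MAPK6 had log2 signals of 10.54, 10.32 and 10.67 in siERK3, against 13.45, 13.55 and 13.62 in siCon, so that the groups lay far apart, by -3.03 on the log2 scale (SE 0.14, limma's adjusted p = 0.000133). Of 11 measured melanoma and melanocyte markers, 6 lay above background on all 6 arrays, SOX10, MITF and S100B among them. The other 5, NGFR and the pigmentation markers MLANA, PMEL, TYR and TYRP1, lay below it on all 6. Endothelial and keratinocyte markers (4 each) lay below background on all 6 arrays, as did 3 of 5 leukocyte markers, PTPRC among them, and 3 of 6 fibroblast markers. Of the 6 fibroblast markers, 3 had positive and 3 negative log2 changes, with a median of 0.03. LUM fell (-0.83, adjusted p = 0.0441), a call lost in all 6 fits that left out 1 array (0.0825 to 0.157), while PDGFRB had 0.75 (adjusted p = 0.0631) and lay above background on the siERK3 arrays only. The log2 of the summed fibroblast signal was 9.98 to 10.05 in siERK3 and 10.29 to 10.39 in siCon. The same sum for the leukocyte markers, carried by CD68 and LYZ, was 12.19 to 12.22 in siERK3 and 12.62 to 12.77 in siCon. For the melanoma and melanocyte markers it was 13.51 to 13.64 in siERK3 and 13.66 to 13.67 in siCon, also without overlap. AXL and SOX10, the brightest of these markers, weigh most in that sum, and the groups overlapped in both. Of the 11 markers, 6 had positive and 5 negative log2 changes, with a median of 0.07. The part of these markers in the results was not tested. On the second principal component, siERK3 3 (-15.2) and siCon 2 (-26.5) stood apart from the other arrays (4.35 to 21.7), so results are also given without that pair. Whether the replicates were separate cultures is not stated in the labels, so a p-value here weighs a difference against the spread of 3 arrays a group that may be technical repeats.

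The comparison of siERK3 with siCon asks which transcripts differ after ERK3 knockdown. None of the 31 measured members passed limma's test with adjustment over all genes, at a threshold of 0.05. The count was 0 of 31, where 0.956% of all genes passed. The members with the smallest p nevertheless formed a mixed picture of 5 genes with changes near 1.5-fold. The late sterol enzymes MSMO1 and DHCR7, the fatty acid synthase FASN and the SREBP gene SREBF1 were 1.53-fold to 1.62-fold higher in siERK3. INSIG1, whose product holds SCAP back when sterols are plentiful, was at 65.0% of its siCon signal. The arrays measure RNA, and SREBP activity was not tested.

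At an unadjusted p under 0.05 in limma, 8 of 31 members (25.8%) were higher in siERK3, against 6.98% of all genes, and 3 of 31 (9.68%) were lower, against 6.5% of all genes. Without overlap between the groups, 10 of 31 members (32.3%) were higher, against 10.1% of all genes, and 6 of 31 (19.4%) were lower, against 9.7%. Most of these genes are well expressed, and 28 of the 31 lay above background on all 6 arrays. Among the 7721 genes that did so, 8.76% reached an unadjusted p under 0.05 in the higher and 8.96% in the lower direction, compared with 8 (28.6%) and 3 (10.7%) of these 28 members. Without overlap, 9 (32.1%) of the 28 members were higher and 6 (21.4%) lower, compared with 14.5% and 15% of such genes. The share of members in the lower direction at that p was thus near the background, and the share in the higher direction was above it. That share was smaller without siERK3 1, at 4 of 31 members (12.9%) against 5.38% of all genes, and without siCon 3, at 5 of 31 (16.1%) against 5.7% of all genes. The median log2 change was 0.15 over the 31 members and -0.00139 over all genes. No test of the list was made.

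**Figure D1:**
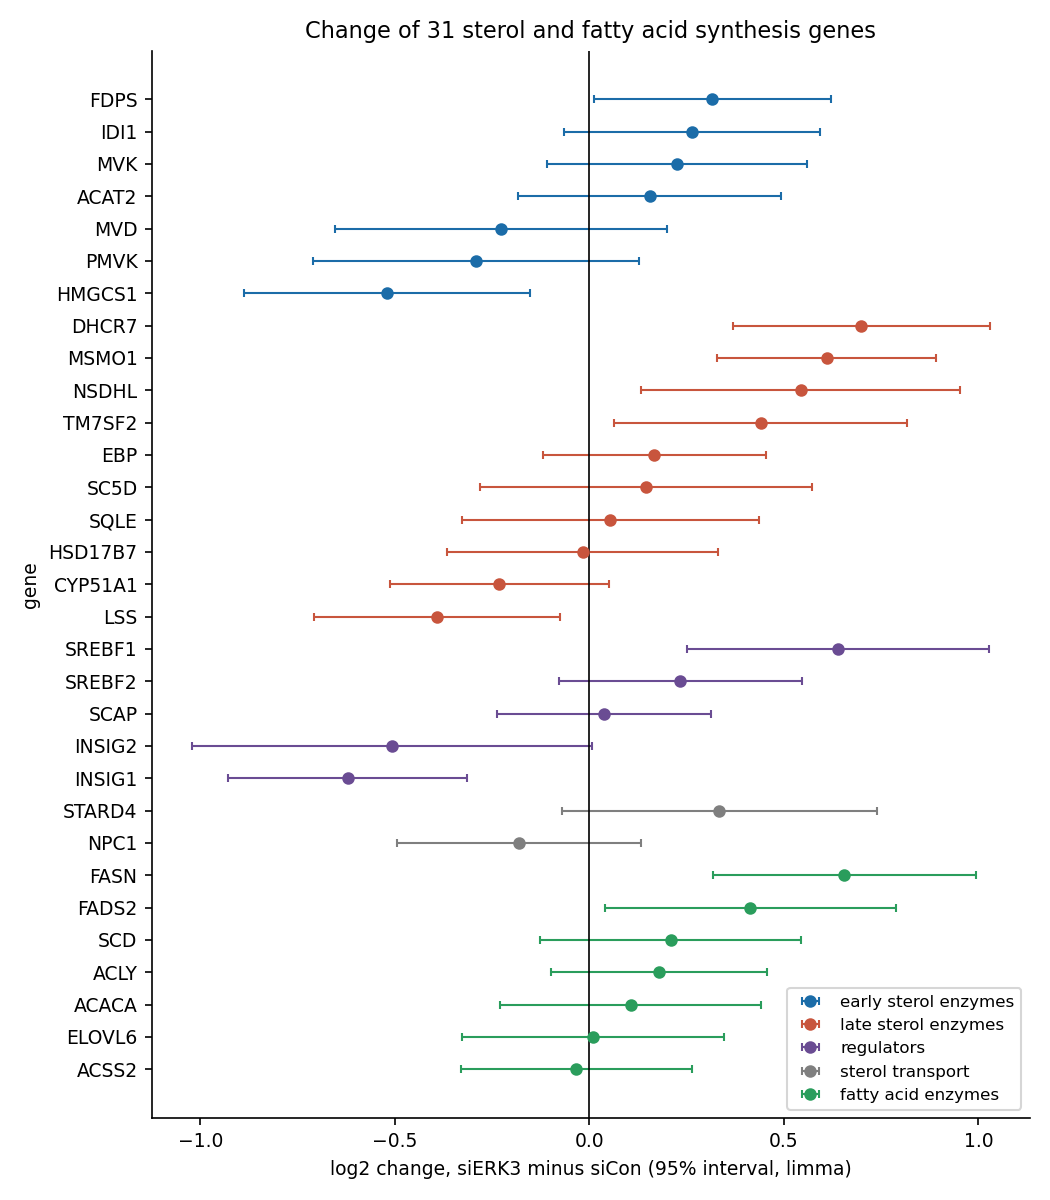
Log2 change (siERK3 minus siCon) with its 95% interval from limma for the 31 measured genes, in rows grouped and coloured by role and ordered by change within each role. DHCR7 (0.70) and MSMO1 (0.61) lead the late enzymes, while HMGCS1 (-0.52) stands lowest among the early enzymes and INSIG1 (-0.62) lowest among the regulators.

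The early sterol enzymes lead from acetyl-CoA through mevalonate to farnesyl diphosphate. Of 7 measured, 4 had positive and 3 negative log2 changes, with a median of 0.15 and a mean of -0.01. These figures include negative changes of PMVK and MVD, whose signals lay below background on all 6 arrays. Without these 2 genes the median was 0.23, the change of MVK. HMGCS1, which makes HMG-CoA, had log2 signals of 7.89, 7.66 and 7.92 in siERK3, against 8.34, 8.59 and 8.11 in siCon. Its 3 siERK3 arrays all lay below its 3 siCon arrays, and its log2 change was -0.52 (SE 0.16, unadjusted p = 0.0110, adjusted p = 0.209 in limma). FDPS, which makes farnesyl diphosphate at the other end of this segment, had 12.83, 12.77 and 12.59 in siERK3, against 12.49, 12.43 and 12.32 in siCon. It was the reverse of HMGCS1, with every siERK3 array above every siCon array and a log2 change of 0.32 (SE 0.13, unadjusted p = 0.0435, adjusted p = 0.354).

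For the other enzymes of this segment above background, the 95% intervals included 0. IDI1, the isomerase that prepares the building block for FDPS, had a log2 change of 0.26 (95% interval -0.07 to 0.59), and ACAT2, the cytosolic thiolase at the start of the route, of 0.15 (-0.18 to 0.49). MVK, which phosphorylates mevalonate, had a log2 change of 0.23 (-0.11 to 0.56) and lay above background on 3 siERK3 arrays and 2 siCon arrays. PMVK and MVD, the next kinase and the decarboxylase, lay below background on all 6 arrays, so only levels can be given. PMVK averaged 6.69 in siERK3 and 6.98 in siCon on the log2 scale, and MVD averaged 6.19 in siERK3 and 6.42 in siCon. A difference in these 2 genes may have been missed at this signal.

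The late enzymes turn squalene into cholesterol. All 10 were measured, 7 with positive and 3 with negative log2 changes, with a median of 0.16 and a mean of 0.20. That median was close to the 0.15 of the 7 early enzymes and below the 0.23 found without PMVK and MVD. In siERK3, 4 were higher (MSMO1, DHCR7, NSDHL and TM7SF2) and 1 was lower (LSS) with an unadjusted p under 0.05. MSMO1, the methylsterol oxidase, had log2 signals of 13.00, 12.94 and 13.02 in siERK3, against 12.31, 12.38 and 12.44 in siCon. The groups lay far apart for their spread (SD 0.04 in siERK3 and 0.07 in siCon), and the log2 change of 0.61 (SE 0.12) had the smallest p of all members (unadjusted p = 0.0009, adjusted p = 0.0686 in limma). DHCR7, the reductase that makes cholesterol from its dehydro precursor, had 11.92, 11.68 and 12.00 in siERK3, against 11.30, 11.07 and 11.12 in siCon. All its siERK3 arrays were higher, by 0.70 on average (SE 0.15, unadjusted p = 0.00103, adjusted p = 0.0722), the largest change among the 31 members.

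Of the other enzymes near MSMO1, NSDHL, the sterol dehydrogenase that acts with it in removing methyl groups, had 10.09, 9.87 and 9.70 in siERK3, against 9.47, 9.01 and 9.55 in siCon. The groups did not overlap, with siCon 2 the lowest array, and the log2 change was 0.54 (SE 0.18, adjusted p = 0.241). TM7SF2, a sterol reductase, had 8.39, 8.05 and 8.43 in siERK3, against 7.76, 8.08 and 7.71 in siCon. Its groups overlapped, siERK3 2 lying just under siCon 2, and the log2 change was 0.44 (SE 0.17, adjusted p = 0.292). HSD17B7, the ketoreductase of the same demethylation sequence as MSMO1 and NSDHL, had a log2 change of -0.02 (95% interval -0.37 to 0.33).

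The 2 enzymes at lanosterol had negative log2 changes, neither of which passed the test. LSS, the cyclase that forms lanosterol, had 8.85, 8.71 and 8.50 in siERK3, against 9.07, 9.04 and 9.12 in siCon. Every siERK3 array was lower, siERK3 3 the lowest, with a log2 change of -0.39 (SE 0.14, unadjusted p = 0.0204, adjusted p = 0.268). CYP51A1, the demethylase that acts on lanosterol, also had non-overlapping groups, with 10.07, 10.09 and 10.13 in siERK3, against 10.39, 10.34 and 10.25 in siCon. Its log2 change of -0.23 (SE 0.12) had an unadjusted p of 0.0945. SQLE, which epoxidises squalene just before LSS, had a log2 change of 0.05 (95% interval -0.33 to 0.44). The last isomerase and desaturase steps showed small values, with log2 changes of 0.17 (-0.12 to 0.45) for EBP and 0.14 (-0.28 to 0.57) for SC5D; the EBP groups did not overlap.

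**Figure D2:**
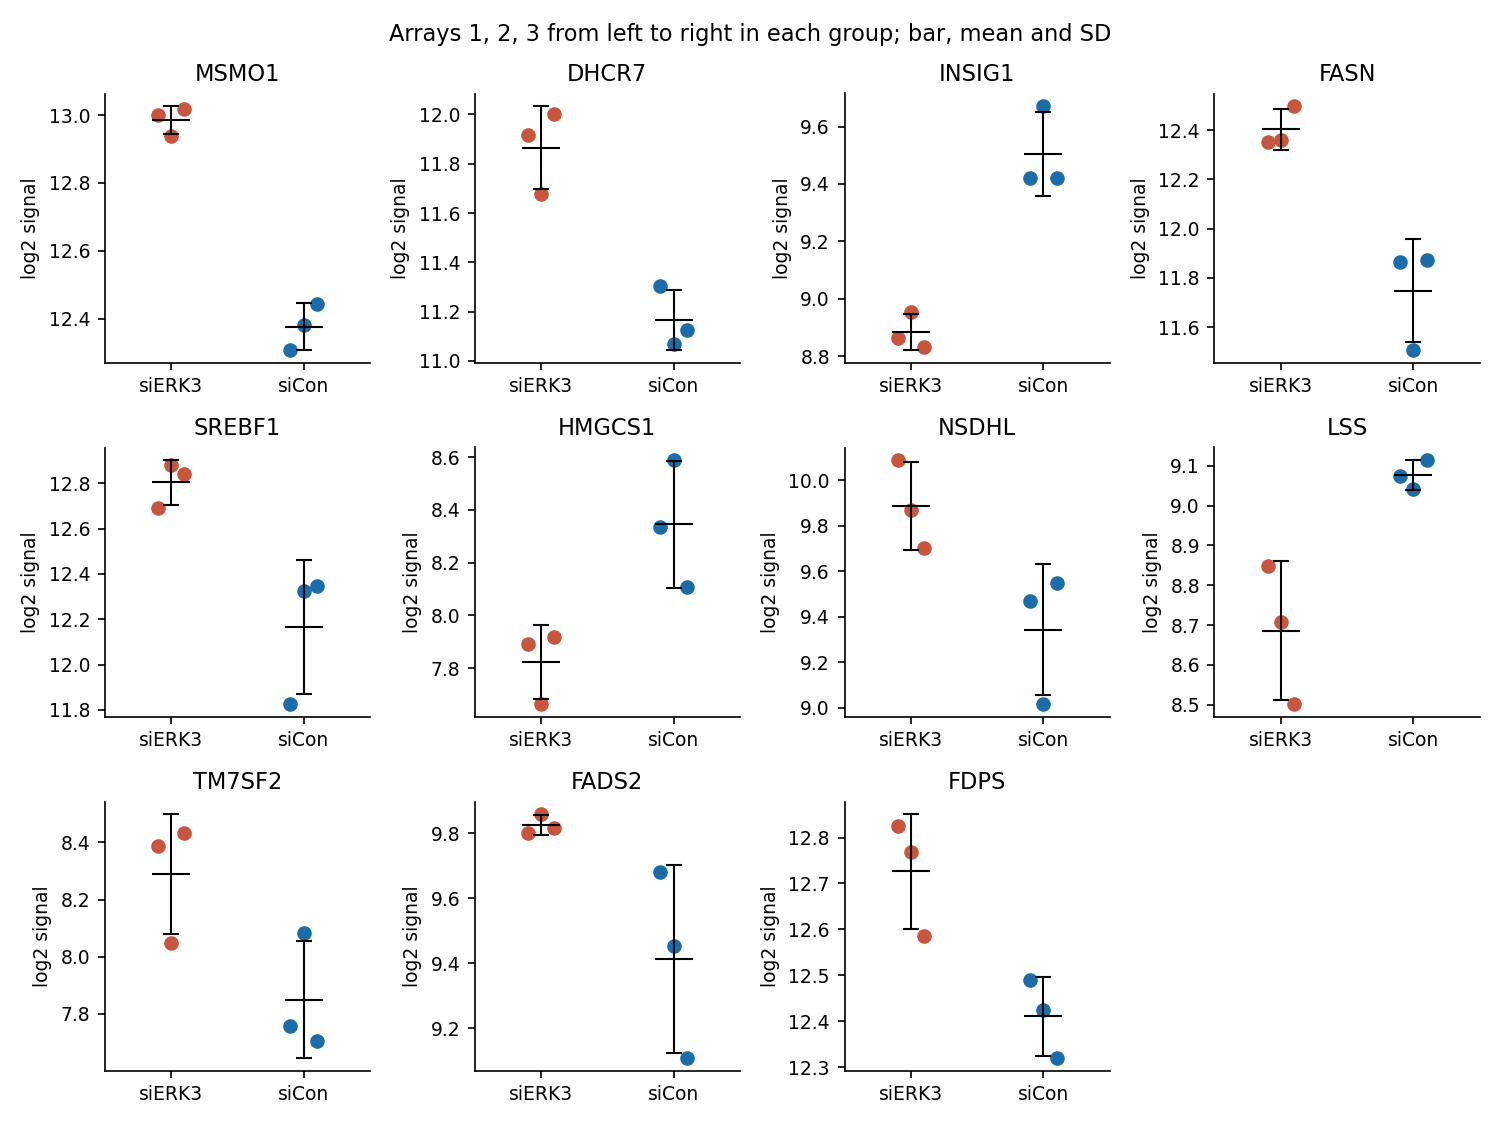
Log2 signal on each array for the 11 genes with an unadjusted p under 0.05, siERK3 left and siCon right in each panel, ordered by p from MSMO1 to FDPS; points are arrays, bars the mean and SD (n = 3), and each panel has its own vertical range, which does not start at 0. The groups overlap in TM7SF2 alone of the 11, and INSIG1, HMGCS1 and LSS are the 3 that are lower in siERK3.

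Among the regulators, the SREBP genes and the INSIG genes had log2 changes of opposite sign. SREBF1, which encodes the SREBP best known for fatty acid genes, had log2 signals of 12.69, 12.88 and 12.84 in siERK3, against 11.82, 12.32 and 12.35 in siCon. All siERK3 arrays lay above all siCon arrays, siCon 1 being the lowest, with a log2 change of 0.64 (SE 0.17, unadjusted p = 0.00481, adjusted p = 0.142 in limma). SREBF2, which encodes the SREBP best known for cholesterol genes, had 10.84, 10.55 and 10.78 in siERK3, against 10.40, 10.51 and 10.55 in siCon. Its groups overlapped narrowly, at siERK3 2 and siCon 3, and its log2 change was 0.23 (95% interval -0.08 to 0.55).

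INSIG1 had 8.86, 8.95 and 8.83 in siERK3, against 9.42, 9.67 and 9.42 in siCon. The groups were clearly separate, with siCon 2 the highest array, and the log2 change was -0.62 (SE 0.14, unadjusted p = 0.00138, adjusted p = 0.0804). INSIG2, its paralog, had 8.58, 8.41 and 7.73 in siERK3, against 8.59, 8.69 and 8.96 in siCon. The groups touched without overlap at siERK3 1 and siCon 1, and the change of -0.51 (SE 0.23, unadjusted p = 0.0526) drew on siERK3 3, without which it was -0.25. SCAP had 10.87, 10.78 and 10.85 in siERK3, against 10.78, 10.80 and 10.80 in siCon. These values overlapped, and the 95% interval of its log2 change of 0.04 was -0.24 to 0.31, the narrowest among the regulators. The median over the 5 measured regulators was 0.04 and the mean -0.04.

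To set the promoters beside these values, windows from 250 bases before to 50 bases after the annotated start were read from RefSeq (GRCh38.p14), matched by symbol for 28 of the 31 members. For the 9 members with several windows the one listed at the top was taken. The DHCR7 window lies wholly inside that gene's annotated span (71427287 to 71449043), so its start is not the outermost end of the gene. The 5 windows shown belong to the members with the smallest p that had one. SREBF2 is added because it held the only match to the sterol regulatory element letters among the 28 member windows. Capitals mark TCACNCCAC (the core of that element) and CCAAT (the NF-Y box), each searched on both strands, so that ATTGG is CCAAT on the opposite strand.
MSMO1 (chr4:165327419-165327718, plus strand): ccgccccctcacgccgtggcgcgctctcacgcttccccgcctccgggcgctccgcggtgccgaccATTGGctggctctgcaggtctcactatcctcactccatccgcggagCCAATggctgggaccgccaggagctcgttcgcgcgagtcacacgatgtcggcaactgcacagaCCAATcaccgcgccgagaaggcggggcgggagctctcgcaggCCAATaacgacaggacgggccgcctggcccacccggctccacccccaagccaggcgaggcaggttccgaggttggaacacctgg
DHCR7 (chr11:71448344-71448643, minus strand): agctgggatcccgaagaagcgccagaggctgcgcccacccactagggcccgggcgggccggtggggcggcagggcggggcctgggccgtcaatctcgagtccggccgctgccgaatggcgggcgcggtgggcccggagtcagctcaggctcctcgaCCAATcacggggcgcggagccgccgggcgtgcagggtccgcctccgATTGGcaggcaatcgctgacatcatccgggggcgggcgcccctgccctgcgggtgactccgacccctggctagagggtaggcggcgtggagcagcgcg
INSIG1 (chr7:155297628-155297927, plus strand): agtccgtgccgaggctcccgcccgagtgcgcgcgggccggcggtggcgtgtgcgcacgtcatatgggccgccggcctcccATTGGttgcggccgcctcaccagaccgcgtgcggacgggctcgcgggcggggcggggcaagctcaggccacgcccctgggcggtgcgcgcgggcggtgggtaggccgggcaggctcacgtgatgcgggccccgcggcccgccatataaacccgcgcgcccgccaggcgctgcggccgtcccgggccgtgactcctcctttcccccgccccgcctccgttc
SREBF1 (chr17:17836937-17837236, minus strand): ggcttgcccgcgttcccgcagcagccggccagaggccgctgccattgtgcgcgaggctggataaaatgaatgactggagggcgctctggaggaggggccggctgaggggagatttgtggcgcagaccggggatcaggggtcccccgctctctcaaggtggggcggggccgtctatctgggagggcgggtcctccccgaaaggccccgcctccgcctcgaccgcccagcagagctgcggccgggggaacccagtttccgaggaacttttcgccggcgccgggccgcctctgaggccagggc
HMGCS1 (chr5:43313363-43313662, minus strand): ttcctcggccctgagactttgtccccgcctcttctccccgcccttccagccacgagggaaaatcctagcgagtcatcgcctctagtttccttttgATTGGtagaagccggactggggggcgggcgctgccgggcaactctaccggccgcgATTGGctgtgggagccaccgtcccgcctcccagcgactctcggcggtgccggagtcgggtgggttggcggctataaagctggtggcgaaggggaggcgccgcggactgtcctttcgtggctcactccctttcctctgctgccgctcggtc
SREBF2 (chr22:41832855-41833154, plus strand): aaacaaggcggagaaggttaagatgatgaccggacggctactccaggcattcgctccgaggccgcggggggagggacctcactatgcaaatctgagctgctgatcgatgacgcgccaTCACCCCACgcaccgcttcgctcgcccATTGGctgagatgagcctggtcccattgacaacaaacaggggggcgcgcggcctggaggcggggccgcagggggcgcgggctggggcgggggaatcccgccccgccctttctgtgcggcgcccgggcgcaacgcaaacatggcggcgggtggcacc

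MSMO1, with the smallest p, held 4 CCAAT matches, DHCR7 and HMGCS1 held 2 each although their changes had opposite signs, INSIG1 held 1 and SREBF1 held 0. HMGCS1 has another window, not used here, which held no CCAAT match. MVK and NSDHL, whose windows are not shown, each held more matches than MSMO1. Their log2 changes were 0.23 and 0.54, against 0.61 for MSMO1. The order among the windows shown thus did not hold over all member windows. The letters CCAAT were found in 18 of the 28 member windows (64.3%), against 35.7% of 27305 gene promoters in the table and 36.4% of the 14250 that belong to genes on the array. GGGCGG, the letters of an Sp1 box, were in 26 of 28 (92.9%), against 59.5% of the array's genes. TCACNCCAC was in 1 of 28 (3.57%), in SREBF2 only, against 1.16%, and CACGTG, an E-box, was in 4 (14.3%), namely SCAP, INSIG1, SC5D and LSS, against 8.69%. No match to one of these motifs overlapped a match to another in the member windows, a count of 0. The genes compared were not matched to the members for signal level, although most members lay above background. A match describes letters in a short window and is not evidence of binding. A missing match does not show that a member lacks the element, since variant letters and positions outside the window were not searched.

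The sterol transport genes measured were STARD4, a soluble cholesterol carrier, and NPC1, which exports cholesterol from lysosomes. STARD4 had log2 signals of 9.34, 9.18 and 9.33 in siERK3, against 8.87, 9.31 and 8.67 in siCon. The siCon arrays were scattered and siCon 2 lay among the siERK3 values, so the log2 change of 0.33 had a 95% interval of -0.07 to 0.74 (unadjusted p = 0.0952); it was 0.51 without siCon 2 and 0.19 without siCon 3. NPC1 had a log2 change of -0.18 (-0.49 to 0.13), its 3 siERK3 arrays lying below its 3 siCon arrays by small margins.

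Of the 7 fatty acid enzymes measured, 6 had positive log2 changes (with cyclic loess normalization ELOVL6 turned to -0.00232), with a median of 0.18, and 2 of them reached an unadjusted p under 0.05. FASN, the multienzyme that builds palmitate, had log2 signals of 12.35, 12.36 and 12.50 in siERK3, against 11.86, 11.51 and 11.88 in siCon. The groups were well apart, with siCon 2 the lowest, and the log2 change was 0.65 (SE 0.15, unadjusted p = 0.00183, adjusted p = 0.0917 in limma). FADS2, a desaturase of polyunsaturated fatty acids, had 9.80, 9.86 and 9.82 in siERK3, against 9.68, 9.45 and 9.11 in siCon. Its siERK3 arrays were tightly grouped above the scattered siCon arrays, with a log2 change of 0.41 (SE 0.16, unadjusted p = 0.0341, adjusted p = 0.323) that was 0.26 without siCon 3.

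Upstream of FASN, ACLY, which splits citrate to acetyl-CoA, had non-overlapping groups but a log2 change of only 0.18 (95% interval -0.10 to 0.46). ACACA, the carboxylase that commits acetyl-CoA to fatty acids, had 0.11 (-0.23 to 0.44) with overlapping groups, and ACSS2, which makes acetyl-CoA from acetate, had -0.03 (-0.33 to 0.26). Downstream, SCD, the stearoyl-CoA desaturase, had 0.21 (-0.13 to 0.54), and ELOVL6, the elongase of palmitate, had 0.01 (-0.33 to 0.35). All 5 intervals include 0 and end below 0.61, the change of MSMO1.

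**Figure D3:**
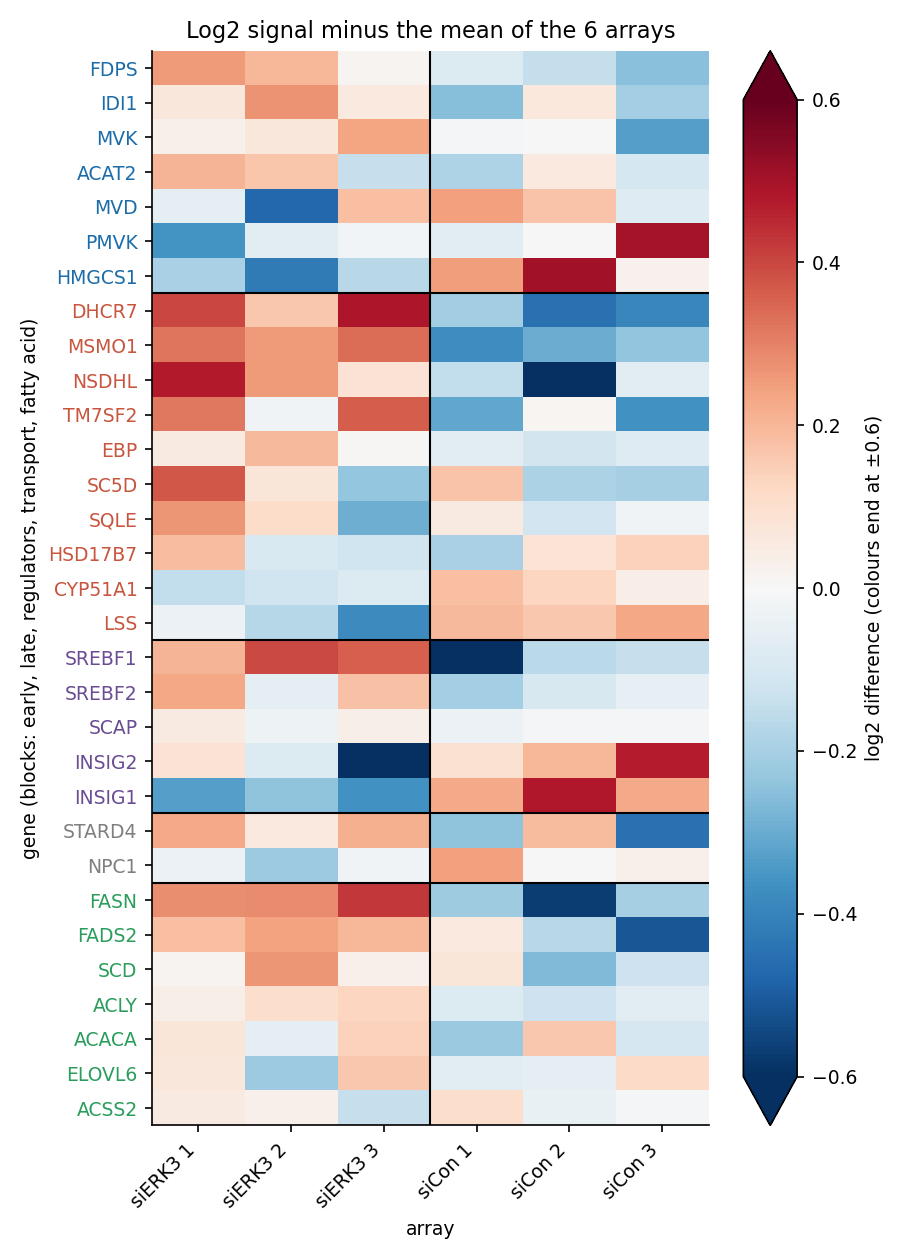
Log2 signal of each gene minus its mean over the 6 arrays, the siERK3 arrays left and the siCon arrays right, in role blocks ordered by change; colours run from -0.6 (blue) to 0.6 (red). FASN, DHCR7 and MSMO1 are red on all 3 siERK3 arrays and blue on all 3 siCon arrays, INSIG1 is the reverse, and SC5D and SQLE differ more within siERK3 than between the groups.

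Arrays of the siERK3 group did not carry the late-enzyme pattern equally. The median over the late enzymes of signal minus each gene's 6-array mean was 0.29, 0.09 and -0.04 on siERK3 1, 2 and 3, against -0.11, -0.11 and -0.07 on siCon 1, 2 and 3. All 3 siERK3 values were above the siCon values, but siERK3 3 only narrowly. For the fatty acid enzymes the same median was 0.07, 0.10 and 0.14 on the siERK3 arrays, against -0.07, -0.12 and -0.10 on the siCon arrays, with similar values within each group. For the early enzymes it was 0.03, 0.07 and 0.02 in siERK3, against -0.07, 0.06 and -0.11 in siCon, where siCon 2 lay among the siERK3 arrays.

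Of the 11 members with an unadjusted p under 0.05, 6 kept it in each of the 6 fits that left out 1 array. They were MSMO1, DHCR7, INSIG1, FASN, SREBF1 and HMGCS1, with highest unadjusted p of 0.0041, 0.00516, 0.00597, 0.00835, 0.0190 and 0.0454 in limma. The other 5 lost it in some. LSS lost it without siERK3 3 or siCon 3, NSDHL without siERK3 1 or siCon 2, TM7SF2 without siERK3 1, siERK3 3, siCon 1 or siCon 3, and FDPS without siERK3 1, siERK3 2, siCon 2 or siCon 3. FADS2 kept it only without siCon 1. Without the pair of arrays that stood apart (siERK3 3 and siCon 2), 9 of 31 members (29%) reached that level in the higher direction, against 6% of all genes, and 2 (6.45%) in the lower, against 5.87%. There MSMO1, DHCR7, FASN, SREBF1 and INSIG1 had log2 changes of 0.60, 0.58, 0.49, 0.70 and -0.51. These 5 kept their direction, while LSS (-0.32, unadjusted p = 0.0875) and FADS2 (0.44, unadjusted p = 0.0897) no longer reached it.

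The leading members passed after adjustment under 3 of the 18 alternatives. With genes in the lowest 30% by mean level left out, MSMO1, DHCR7, INSIG1 and FASN passed (adjusted p = 0.0322, 0.0373, 0.0404 and 0.0471 in limma), 4 of 31 members, where 2.95% of genes passed. Among genes above the median level, those 4 and SREBF1 passed, 5 of 29 tested members, where 6.57% of genes passed. With a mean-variance trend and robust eBayes the same 5 passed, 5 of 31, where 4.08% of genes passed. In the other 15 alternatives none of the 31 passed. Over all alternatives the adjusted p ran from 0.000585 to 0.273 for MSMO1, 0.00164 to 0.313 for DHCR7, 0.0147 to 0.316 for INSIG1, 0.00234 to 0.330 for FASN and 0.00591 to 0.331 for SREBF1.

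**Figure D4:**
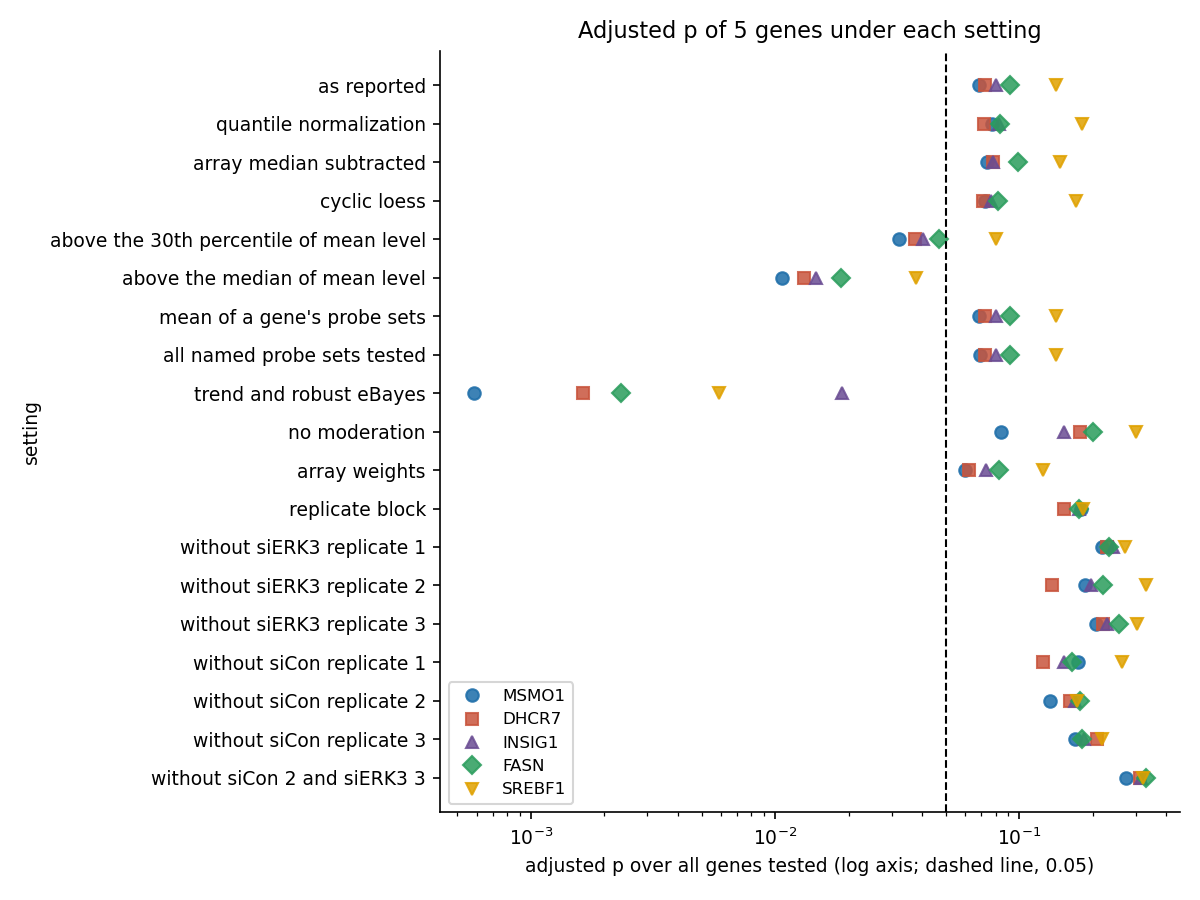
Adjusted p over all genes tested (logarithmic axis, 0.05 dashed) for MSMO1, DHCR7, INSIG1, FASN and SREBF1 under the fit reported and the 18 alternatives, 1 row each. Points lie left of the line under the 2 filters on dim genes and the trend setting, apart from SREBF1 under the 30th-percentile filter, and right of it under all others.

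Further genes of the pathway were taken from 4 lists of steps around the members, 71 genes in all, of which 56 were measured. Of these 2 rose (3.57%, against 0.447% of all genes), 0 fell (against 0.509%) and 54 did not pass the test over all genes, and the median log2 change was 0.04. SAR1B, a GTPase of the COPII coat that buds vesicles from the endoplasmic reticulum, had log2 signals of 11.70, 11.48 and 11.59 in siERK3, against 10.65, 10.70 and 10.27 in siCon. The groups were wide apart, and SAR1B rose 2.06-fold (log2 change 1.05, SE 0.16, adjusted p = 0.0236 in limma). IDH1, the cytosolic isocitrate dehydrogenase that yields NADPH, had 11.94, 11.91 and 11.69 in siERK3, against 11.02, 11.15 and 11.04 in siCon. It rose 1.72-fold with no overlap (log2 change 0.78, SE 0.13, adjusted p = 0.0405). Neither call held in any of the 6 fits that left out 1 array, where the adjusted p was 0.0504 to 0.108 for SAR1B and 0.0760 to 0.164 for IDH1, nor without siERK3 3 and siCon 2 together (0.166 and 0.160).

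Of 16 measured genes of SREBP processing and sterol sensing, SAR1B rose and 15 did not pass. PAQR3, a Golgi protein reported to tether SCAP, had a log2 change of 0.39 (adjusted p = 0.345), and SEC24C, a cargo subunit of the COPII coat, of -0.31 (adjusted p = 0.357). Of 11 genes of the isoprenoid branch, which turns farnesyl diphosphate to dolichol, ubiquinone and protein prenylation, 0 passed. NUS1, a subunit of the dolichol-making prenyltransferase, had -0.54 (adjusted p = 0.202), RABGGTA, a subunit of the enzyme that prenylates Rab proteins, 0.50 (0.241) and COQ2, a prenyltransferase of ubiquinone synthesis, -0.47 (0.288), which was -0.29 without siERK3 3.

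Of 6 measured genes at other sterol steps 0 passed. SOAT1, which esterifies cholesterol for storage, had a log2 change of -0.31 (adjusted p = 0.348) and ERG28, a scaffold of the demethylation enzymes that include MSMO1 and NSDHL, of 0.29 (adjusted p = 0.361). SOAT2, the other esterifying enzyme, lay below background on all 6 arrays, at 3.17 in siERK3 and 3.25 in siCon. Of 23 measured genes at other fatty acid steps IDH1 rose and 22 did not pass. ELOVL4, an elongase of very long chains, had -0.42 (adjusted p = 0.385), which was -0.21 without siERK3 1, and THRSP, a regulator of lipid synthesis, lay below background on all 6 arrays, at 3.48 in siERK3 and 4.02 in siCon.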

How the data were processed

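Values of Clariom S Pico human arrays (WT PLUS kit, per the series' design text) were read from the deposited table on its log2 scale, recognised from the values themselves (array minimum 1.84 to 2.09, maximum 19.1 to 19.4). The software and steps behind it are not stated in the labels. Since 1.46% to 1.61% of values per array lie above 16, more than a 16-bit scanner records, the scale's zero point and any stretch are unknown, and a stretch would change the folds.

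The platform annotation named 1 gene for 17709 of 24351 probe sets. The other 6642, controls among them, were not named for 1 gene alone and were left out. The brightest probe set per gene was kept (20 genes had more than 1). Groups were compared with limma 3.58.1 (R 4.3.3, lmFit and eBayes, prior 4.77 degrees of freedom, median SE 0.165) without filter or covariate, with Benjamini-Hochberg adjustment over 17687 genes. The number of arrays limits the precision: an exact permutation test of 3 against 3 cannot go below 0.1 and was not run. In simulated data of 17687 genes, 65.0% of genes given a log2 change of 0.8 and 96.9% of those given 1.2 were recovered, and smaller changes were not simulated.

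The members and lists were chosen with earlier results of these data known. Values on every array are given for members with an unadjusted p under 0.05 or a change of at least 0.5, for the regulators and for the member with the smallest p of each role. Of the other pathway genes, those past the threshold and up to 3 per list with the smallest p are named; CYP51A1 and the markers were named with their values in view. Alternatives were other normalizations, filters on dim genes, probe set rules, variance settings, array weights, the replicate number as a block and each array left out. The fit without siERK3 3 and siCon 2 was added after seeing the data.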

Additional observations from a re-analysis of the deposited data

How the results depend on the processing

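Over 18 alternatives, 540 of 556 member values kept their direction, and none with an unadjusted p under 0.05 reversed. Those that reversed were near 0 in the fit reported, apart from SC5D with 0.14. They were ELOVL6 (-0.00232 with cyclic loess, -0.0448 with array weights, -0.0974 without siERK3 3 and siCon 2, -0.0710 to 0.120 with 1 array left out), HSD17B7 (0.0741 without that pair, -0.119 to 0.0475) and ACSS2 (-0.0693 to 0.0267). With 1 array left out, SC5D (-0.00598 to 0.297), SQLE (-0.0662 to 0.214) and, outside the members, SOAT2 (-0.228 to 0.0889) also reversed. Members past the threshold numbered 4 above the 30th percentile of mean level, 5 above the median and 5 with trend and robust eBayes, and 0 elsewhere; the cause was not tested. All genes past it numbered 365, 581 and 722 under those settings, 8 without moderation, 33 with the replicate block, 7 without siERK3 3 and siCon 2, and 23 to 60 with 1 array left out. Members higher at an unadjusted p under 0.05 numbered 4 to 7 of 31 with 1 array left out (12.9% to 22.6%, against 5.38% to 6.83% of all genes); the lowest, 4 and 5, came without siERK3 1 and without siCon 3. The median log2 change of early sterol enzymes was 0.23 above the median level (5 genes) and 0.0915 to 0.223 with 1 array left out. Without moderation and with the block, the adjusted p was 0.146 and 0.0824 for SAR1B, 0.118 and 0.127 for IDH1 and 0.155 and 0.136 for LUM; NUS1 passed with the trend (0.0287). LUM passed in 0 of 6 fits with 1 array left out (0.0825 to 0.157). Same-numbered siERK3 and siCon arrays did not deviate together (r of 0.0492, -0.124 and -0.0386 for numbers 1 to 3). With 3 arrays a group these values cannot show whether equal numbers pair samples, and the labels do not state it. With the replicate block 6 members (19.4%, against 6.16% of all genes) were higher and 3 (9.68%, against 5.73%) lower by that unadjusted p. MAPK6 stayed past the threshold throughout (-2.94 to -3.11). Signals near background limit PMVK, MVD and MVK.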
